A study of Homo sapiens with 20 samples.

Results

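Solute carrier genes encode membrane proteins that move amino acids, sugars, ions, metals, vitamins and other small molecules across cell and organelle membranes. The genes described here were the protein-coding genes whose symbol follows the pattern SLC, number, A, number, leaving out SLC29A1, SLC29A2, SLC30A1, SLC7A11 and SLC2A1, with each gene represented by the annotated transcript that collected the most reads and kept if it had 200 or more reads over the 18 labelled libraries. Of 337 genes of that pattern in the files, 5 were left out by name and 168 had fewer than 200 reads, 42 of them none, so that 164 of the 19593 genes matched in the series remained. The nearest genes outside the threshold included SLC45A3 with 162 reads and SLC25A34 with 193, and the nearest inside it were SLC16A13 with 214, SLC16A7 with 217 and SLC6A15 with 239. SLC39A7 (104 reads) and SLC25A6 (listed at 0 reads) fell outside. By the main substrate of each family, the 164 genes were 37 mitochondrial carriers, 27 amino acid carriers, 23 carriers of inorganic ions and bicarbonate, 23 of metals, 18 of sugars and nucleotide sugars, 11 of vitamins, cofactors and nucleosides, 9 of lipids, choline and bile acids, 7 of carboxylates, 5 of organic ions or vesicular cargo, and 4 others.

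Solute carriers work as exchangers, as cotransporters driven by the sodium or proton gradient, or as facilitated carriers, and several need a partner protein to reach the membrane. SLC3A2 (CD98) is the heavy chain that carries the SLC7A5 (LAT1) and SLC7A6 light chains to the plasma membrane, where they exchange large neutral or cationic amino acids, and the SLC25 family moves metabolites, nucleotides and cofactors across the inner mitochondrial membrane. Plasma cells, the cell type from which multiple myeloma arises, secrete large amounts of immunoglobulin and have a high demand for amino acids.

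The cells were MM1.S, an established human multiple myeloma line, and every treated library came from that 1 line. dCBP-30, a degrader of the coactivator acetyltransferases CBP and p300, was given at 10 nM for 2, 6 or 24 h, and DMSO libraries were made at each of these times, giving 6 groups of 3 libraries. All 18 of these libraries were labelled with 4-thiouridine (4sU, 100 µM) for 1 h before harvest, and 2 more libraries of the line had no 4sU and no treatment given in the labels. In this assay (SLAM-seq) RNA made during labelling is read with T-to-C conversions, so a read with a conversion (T>C read) reports newly made RNA and all reads of a gene report its total RNA. Nothing in the labels says whether libraries of a group came from separate cultures, so p-values measure only the spread between these libraries, which may be technical.

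The 18 labelled libraries held 12439665 to 18727385 reads on genes, of which 99756 to 142360 (0.706% to 0.848%) fell on the 164 carriers, with 6253 to 13892 T>C reads. Of the carriers' reads, T>C reads made up 6.89% to 7.45% with DMSO at 2 h, 6.98% to 7.65% at 6 h and 9.68% to 10.1% at 24 h, against 6.90% to 7.30%, 5.43% to 5.57% and 5.97% to 7.03% with dCBP-30. All 8 plasma cell markers (SDC1, TNFRSF17, CD38, XBP1, JCHAIN, IRF4, PRDM1 and MZB1) were read, with a summed level of 5310 to 7100 RPM (reads of a gene scaled to a common library total) in DMSO libraries and 460.0 to 4770 in dCBP-30 libraries. The part of that difference in the results on carriers was not tested. T cell (CD3D, CD3E, CD2 and CD4) and epithelial (EPCAM, KRT8, KRT18 and CDH1) marker sums reached at most 16.5 and 3.56 RPM, with CD3D and EPCAM at 0 reads, and the myeloid sum (LYZ, CD14, CSF1R and FCGR3A) stayed at or below 0.605. CD3E was read at 2.08 to 7.19 RPM in DMSO libraries, and KRT8 and KRT18 had 164 and 276 reads over the labelled libraries. With DMSO the T cell and epithelial sums reached 7.58 and 1.76 RPM, so both maxima came from dCBP-30 libraries. These are bulk libraries, in which fewer cells making a transcript and less of it per cell cannot be told apart.

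Changes were called at an adjusted p under 0.05 together with a change beyond 2-fold (log2 fold change beyond 1). New RNA could be tested for 133 of the 164 carriers, since 31 had too few T>C reads. At 2 h, T>C reads of 10 carriers fell and those of 4 rose (7.52% and 3.01% of the carriers tested), where 7.14% and 1.64% of all 10083 genes tested were called. At 6 h, 25 fell and 3 rose, with 17.1% and 2.36% of all genes called. At 24 h, 45 fell and 1 rose (33.8% and 0.752%), with 31.2% and 2.18% of all genes called. The carriers were thus called about as often as genes at large, and their median beside that of all genes was 0.25 against 0.04 at 2 h, -0.27 against -0.27 at 6 h and -0.89 against -0.69 at 24 h, on the log2 scale.

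Those medians depend on the scaling. Libraries were scaled on total reads with TMM factors. Scaling on the T>C reads themselves put the median of all genes at 0.05, 0.05 and -0.02 and that of the carriers at 0.25, 0.05 and -0.24 at 2, 6 and 24 h, and the calls among carriers became 9 lower and 5 higher, 21 and 10, and 26 and 6. A carrier is described below as lower or higher under the scaling on total reads with TMM, and the carriers that kept their call under all 5 scalings tried numbered 7, 20 and 24 lower and 4, 3 and 1 higher at the successive times. The share of all genes that kept a call under all 5 is not given here, so these counts are not read as particular to carriers. At 24 h a T>C read of the carriers held 1.51 ± 0.05 conversions with dCBP-30 against 2.55 ± 0.03 with DMSO (SD, n = 3), while the values at 2 h were 2.31 ± 0.04 and 2.35 ± 0.08 (SD, n = 3). The part of this difference in the 24 h results was not tested.

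In order of time, 7 carriers were lower at all 3 time points (SLC1A4, SLC7A6, SLC38A1, SLC25A15, SLC25A20, SLC25A53 and SLC37A4). A further 14 were lower at 6 and 24 h but not called at 2 h, and 24 were called lower at 24 h alone. Altogether 51 carriers were lower and 6 higher at 1 or more time points, and 76 of the 133 were never called. The share of all genes with each of these patterns is not given here. At each single time point the carriers were called about as often as genes at large, so the patterns are not read as particular to carriers. The change itself was lower at 24 than at 2 h for 37 carriers and higher for 1, by the test of the difference between the time points, where 21.5% and 2.61% of all genes were called. Beside the class counts below, 7.14%, 17.1% and 31.2% of all genes were called lower in new RNA at 2, 6 and 24 h. Those called higher were 1.64%, 2.36% and 2.18%.

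**Figure D1:**
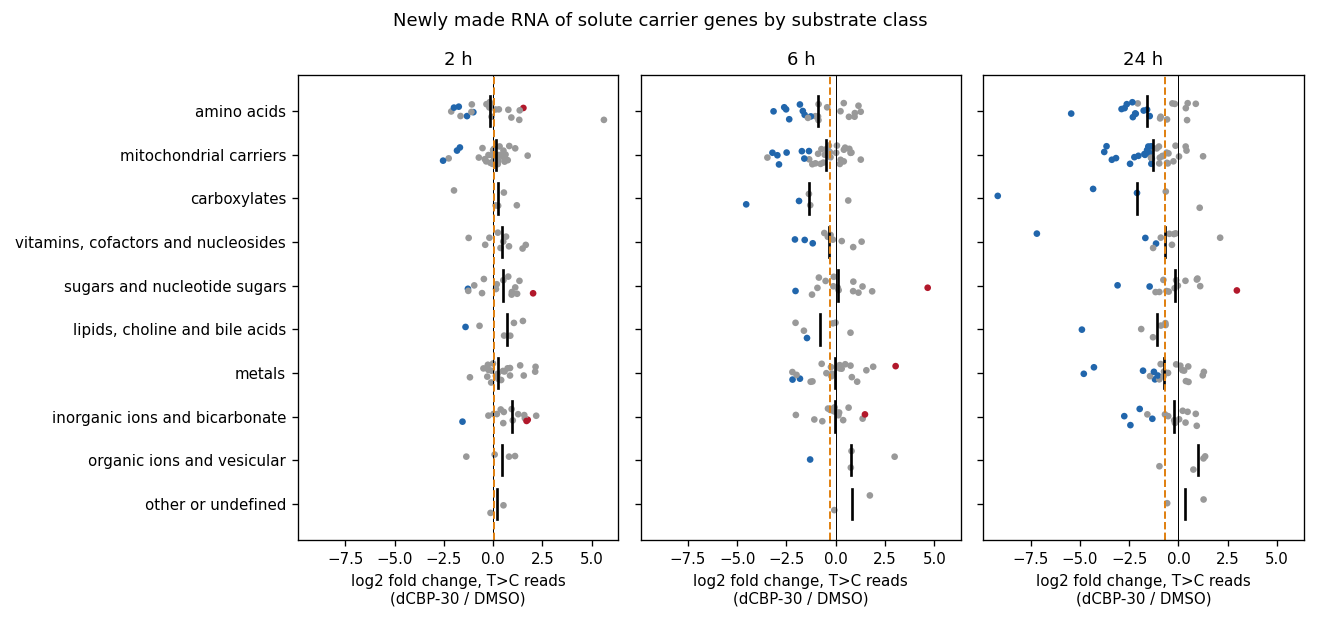
Log2 fold change of T>C reads (dCBP-30 over DMSO, horizontal axis) for the 133 carriers tested, in 1 row per substrate class and 1 panel per time point; blue points were called lower, red higher and grey not called, black ticks are class medians and the dashed line is the median of all 10083 genes tested. Points at -9.16 (SLC16A9, no T>C read with dCBP-30) and 5.62 (SLC15A3, none with DMSO) depend on the fit's prior count; the blue points grow from 10 at 2 h to 25 at 6 h and 45 at 24 h.

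Amino acid carriers held the lowest class median at 2 h. Of 21 tested, 4 were lower and 1 higher at 2 h, 8 were lower at 6 h and 11 at 24 h, and the class median went from -0.17 to -0.90 and -1.59. Scaled on T>C reads the medians were -0.18, -0.58 and -0.86, and 7 carriers were lower at 6 h, 2 of the class higher, and 9 lower at 24 h. The class included the neutral amino acid carriers SLC1A4, SLC1A5, SLC38A1, SLC38A2 and SLC38A5, the CD98 heavy chain SLC3A2 with its light chains, and the cationic amino acid carrier SLC7A1.

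SLC1A4 (ASCT1, an exchanger of alanine, serine, cysteine and threonine) had the most reads of the class, and its counted 3′ UTR lies on chromosome 2 at 65021147 to 65023865 (hg38, plus strand). Its new RNA at 2 h stood at 9.67, 10.2 and 8.51 T>C RPM with dCBP-30 and 33.8, 39.1 and 39.7 with DMSO. The groups were far apart already at 2 h (log2 fold change -1.99, SE 0.18, adjusted p = 2e-13) and remained so, with log2 fold changes of -2.36 at 6 h and -2.62 at 24 h, and neither was called different from that at 2 h (adjusted p = 0.469 and 0.0572). Its total RNA followed later: 648, 707 and 589 RPM with dCBP-30 and 688, 798 and 784 with DMSO at 2 h overlapped between the groups, whereas the values at 24 h were 164, 145 and 179 RPM with dCBP-30 and 759, 714 and 722 with DMSO (log2 fold change -2.17, SE 0.11, adjusted p = 8.33e-15).

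The CD98 complex separated by time. SLC7A6, which encodes a y+LAT2 light chain, had 2.24, 1.98 and 2.19 T>C RPM with dCBP-30 and 6.79, 9.31 and 5.38 with DMSO at 2 h, with no overlap (log2 fold change -1.74, SE 0.37, adjusted p = 0.000332), and stayed low at 6 h (-2.61) and 24 h (-2.31). SLC7A5, which encodes LAT1, the exchanger of leucine and other large neutral amino acids, overlapped between groups at 2 h, with 4.83, 6.00 and 3.19 T>C RPM with dCBP-30 and 6.48, 4.66 and 4.26 with DMSO (log2 fold change -0.14, SE 0.38, adjusted p = 0.899). By 6 h its new RNA was at 0.838, 0.997 and 0.368 T>C RPM with dCBP-30 and 4.80, 4.29 and 3.73 with DMSO, with the treated libraries all below the controls (log2 fold change -2.52, SE 0.43, adjusted p = 3.21e-06). T>C reads made up 3.4%, 4.2% and 1.1% of its reads in these treated libraries, and 5.1%, 5.4% and 5.0% with DMSO. The treated shares lay near its background without 4sU, given below, so the level of new RNA left is uncertain. The level at 24 h was again lower (-2.34, SE 0.41), and its total RNA at 24 h read 11.9, 10.4 and 7.19 RPM with dCBP-30 and 88.6, 84.7 and 90.7 with DMSO (log2 fold change -3.16, SE 0.18, adjusted p = 9.95e-14), the largest decrease in total RNA among these 3 genes of the complex. SLC3A2 itself changed at the later times. Its T>C levels were 61.5, 63.3 and 53.7 T>C RPM with dCBP-30 and 59.4, 70.9 and 73.4 with DMSO at 2 h, which overlap (log2 fold change -0.19, SE 0.16, adjusted p = 0.543), 26.9, 29.3 and 25.9 T>C RPM with dCBP-30 and 67.9, 58.7 and 70.8 with DMSO at 6 h and 18.9, 18.6 and 26.2 T>C RPM with dCBP-30 and 70.8, 72.3 and 73.1 with DMSO at 24 h. Both later sets were apart, at log2 fold changes of -1.26 (SE 0.16, adjusted p = 1.87e-09) and -1.76 (SE 0.16, adjusted p = 5.08e-14), but the 6 h call was lost when libraries were scaled on T>C reads (-0.94).

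SLC1A5 (ASCT2, the main glutamine carrier of many tumour cells) took opposite signs at 2 and 24 h. At 2 h its T>C levels were 43.6, 48.2 and 38.3 T>C RPM with dCBP-30 and 19.7, 24.7 and 31.8 with DMSO, so that all 3 treated libraries were above all 3 controls, with a difference below the 2-fold limit for a call (log2 fold change 0.77, SE 0.20, adjusted p = 0.00493). At 24 h they were 4.93, 3.69 and 8.64 T>C RPM with dCBP-30 and 46.4, 39.9 and 41.4 with DMSO, with the order turned (log2 fold change -2.88, SE 0.22, adjusted p = 5.51e-17). The change at 24 h was below that at 2 h (difference -3.65, SE 0.30, adjusted p = 3.35e-15). Its total RNA stood at 98.4, 95.9 and 123 RPM with dCBP-30 and 557, 487 and 474 with DMSO at 24 h (log2 fold change -2.26, SE 0.14, adjusted p = 9.53e-13).

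Within the SLC38 family of sodium-coupled neutral amino acid carriers, the members took different courses. SLC38A5, an SNAT5 carrier of glutamine, asparagine and serine, went from 4.06, 2.44 and 2.56 T>C RPM with dCBP-30 and 8.18, 5.85 and 5.31 with DMSO at 2 h (not called, log2 fold change -1.10, SE 0.40, adjusted p = 0.0625) to 0.438, 0 and 0.215 T>C RPM with dCBP-30 and 11.8, 9.84 and 7.68 with DMSO at 24 h. The treated 24 h libraries held 8, 0 and 4 T>C reads against 182, 165 and 106 in DMSO (log2 fold change -5.44, SE 0.52, adjusted p = 2.62e-13). Its total RNA at 24 h stood at 28.2, 25 and 20.8 RPM with dCBP-30 and 389, 353 and 411 with DMSO (-3.96). SLC38A1 (SNAT1) was lower throughout, the log2 fold change being -1.0 after 2 h, -1.67 after 6 h and -1.59 after 24 h. Its 2 h value lay on the 2-fold line, and the call was lost without dCBP-30 replicate 1 or 3 or DMSO replicate 1 or 2 (-0.96 to -0.79), while its 24 h call was lost when scaled on T>C reads (-0.93). Its total RNA at 24 h (-1.05) was no longer called without dCBP-30 replicate 3 (-0.98). SLC38A2 (SNAT2, induced in many cells by amino acid shortage) was lower only at the first time point: its T>C levels were 3.37, 4.62 and 3.38 T>C RPM with dCBP-30 and 14.5, 6.63 and 7.47 with DMSO at 2 h (log2 fold change -1.33, SE 0.31, adjusted p = 0.00126), and its log2 fold changes were -0.87 at 6 h and -0.58 at 24 h, neither called. Its 2 h call rested on DMSO replicate 1, without which the value was -0.89, and its total RNA at 2 h was called (log2 fold change -1.07, SE 0.24, adjusted p = 0.00896) but not without dCBP-30 replicate 1 (-0.98) or DMSO replicate 1 (-0.71). Its treated libraries were still below the controls at 24 h, and the difference between the changes at 24 and 2 h was not called (0.75, SE 0.42, adjusted p = 0.201). SLC38A7, a lysosomal carrier of glutamine and asparagine, was the 1 amino acid carrier with higher new RNA, with 3.54, 5.15 and 3.63 T>C RPM with dCBP-30 and 2.08, 1.2 and 0.972 with DMSO at 2 h and no overlap (log2 fold change 1.53, SE 0.47, adjusted p = 0.0209). That call was lost without dCBP-30 replicate 2 (1.34), DMSO replicate 2 (1.43) or DMSO replicate 3 (1.33).

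SLC7A1 (CAT1, an importer of arginine and lysine) was called at 24 h alone, at 2.41, 0.77 and 2.90 T>C RPM with dCBP-30 and 8.10, 9.54 and 10.3 with DMSO (log2 fold change -2.19, SE 0.36, adjusted p = 1.03e-06), whereas at 2 h all treated libraries lay above the controls without a call (0.29, adjusted p = 0.7) and at 6 h the groups overlapped (-0.88). SLC6A6, the taurine carrier, chosen for mention after its values were seen, was lower at 6 h (log2 fold change -1.82, SE 0.47, adjusted p = 0.00191) and at 24 h (-2.17).

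**Figure D2:**
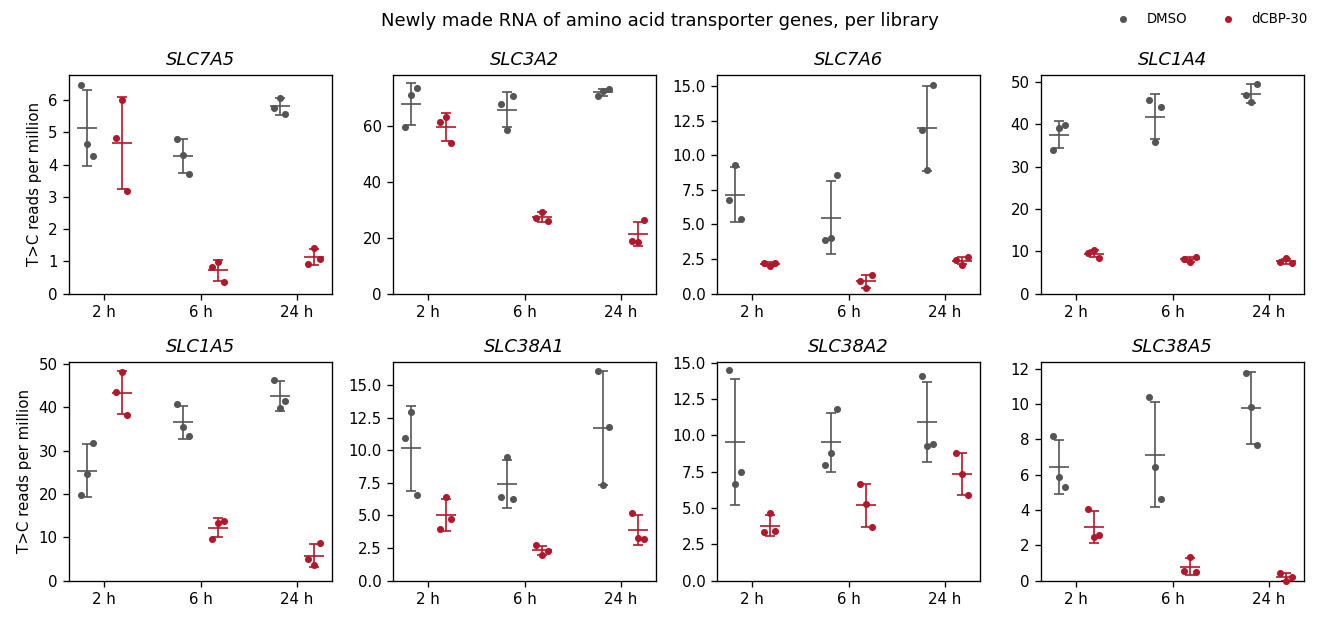
T>C RPM (vertical axis, linear from 0) of 8 amino acid carrier genes in every labelled library; points are the 3 libraries of a group, with the group mean and SD, DMSO in grey and dCBP-30 in red, at 2, 6 and 24 h. SLC1A4 and SLC7A6 are apart at 2 h, SLC7A5 and SLC3A2 from 6 h, SLC1A5 is above the controls at 2 h and below them afterwards, and SLC38A2 approaches its controls by 24 h.

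Of 37 mitochondrial carriers (the SLC25 family) 33 were tested. In new RNA 3 were lower at 2 h, 7 at 6 h and 15 at 24 h, with none higher, and the class median was 0.14, -0.49 and -1.29. Scaled on T>C reads the medians were 0.15, -0.19 and -0.64 and the decreases numbered 3, 7 and 7, with 1 carrier higher at 6 h. SLC25A53, an orphan carrier encoded on the X chromosome, was lowest at 2 h, with 0.604, 1.39 and 0.125 T>C RPM with dCBP-30 and 3.71, 4.94 and 3.74 with DMSO (log2 fold change -2.54, SE 0.55, adjusted p = 0.000413), and was -2.88 and -3.65 at 6 and 24 h. It was also the 1 mitochondrial carrier lower in total RNA at 2 h (log2 fold change -1.2, SE 0.23, adjusted p = 0.00199). In this gene 6.30% as many reads as it counted mapped to more than 1 place.

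SLC25A20 exchanges acylcarnitines for carnitine, and SLC25A15 exchanges ornithine for citrulline in the urea cycle. SLC25A20 fell to 1.04, 0.11 and 1.02 T>C RPM at 24 h, where DMSO libraries had 7.39, 8.59 and 6.81 (log2 fold change -3.38, SE 0.54, adjusted p = 5.44e-07). No treated library reached a control at 2, 6 or 24 h, yet its 2 h call (-1.69, adjusted p = 0.026) was lost without dCBP-30 replicate 1 (-1.23) or 3 (-1.68) or DMSO replicate 1 (-1.61) or 3 (-1.66). SLC25A15 was lowest at 6 h, with 0.718, 0.111 and 0.0613 T>C RPM with dCBP-30 and 2.54, 3.22 and 2.64 with DMSO (log2 fold change -3.21, SE 0.66, adjusted p = 9.9e-05). Its calls at 2 h (-1.83) and 24 h (-1.37, adjusted p = 0.0497) were at the threshold: that at 2 h was lost without dCBP-30 replicate 1 (-1.87) or 3 (-1.48) or DMSO replicate 2 (-1.86) or 3 (-1.34), and that at 24 h in 11 of the 18 fits that left out a library (-1.54 to -1.10) and when scaled on T>C reads (-0.72).

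The ADP/ATP carrier SLC25A5 (ANT2) held the most reads of the family. Its new RNA was 15.3, 13.7 and 8.58 T>C RPM with dCBP-30 and 32.3, 28.9 and 35.5 with DMSO at 6 h (log2 fold change -1.36, SE 0.20, adjusted p = 7.58e-08) and 12.7, 13.0 and 13.2 T>C RPM with dCBP-30 and 31.5, 41.7 and 39.0 with DMSO at 24 h (log2 fold change -1.53, SE 0.20, adjusted p = 2.37e-09), but its total RNA at 24 h missed the 2-fold limit (-0.97, SE 0.14). Scaled on T>C reads, its 24 h value was -0.87 and not called. SLC25A3, the phosphate carrier, was not called at any time (0.51, -0.30 and -0.51). SLC25A37 (mitoferrin 1, the iron importer) was lower at 24 h alone (log2 fold change -1.39, SE 0.39, adjusted p = 0.00284) and not when scaled on T>C reads (-0.74). SLC25A25, an ATP-Mg/phosphate carrier mentioned after its values were seen, had the highest share of new RNA among the carriers, with T>C reads making up 69.7% of its reads under DMSO. Its new RNA at 24 h was 14.5, 9.08 and 10.4 T>C RPM with dCBP-30 and 44.9, 46.9 and 46.8 with DMSO (log2 fold change -2.03, SE 0.19, adjusted p = 2.03e-13), against values at 2 h that overlapped (-0.14).

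Of 7 carboxylate carriers (the SLC16 monocarboxylate family and its relatives), 5 were tested in new RNA: none was called at 2 h, 2 were lower at 6 h and 3 at 24 h, with class medians of 0.25, -1.36 and -2.10. Scaled on T>C reads, 1 and 2 were lower. SLC16A1 (MCT1, a proton-coupled carrier of lactate and pyruvate) had 0.822, 0.055 and 1.29 T>C RPM with dCBP-30 and 2.85, 4.41 and 2.10 with DMSO at 24 h (log2 fold change -2.10, SE 0.61, adjusted p = 0.00407), and all treated libraries lay below the controls. Its total RNA at 24 h was 8.21, 13.6 and 8.10 RPM with dCBP-30 and 37.4, 41.4 and 41.4 with DMSO (-2.0), and the new RNA call was lost when scaled on T>C reads (-1.49). SLC16A3 (MCT4, which exports lactate) was not called in new RNA (1.08, SE 0.82, at 24 h, with all treated libraries above the controls), while its total RNA at 24 h was higher, with 46.1, 43.9 and 46.5 RPM with dCBP-30 and 20.1, 24.1 and 22.4 with DMSO (log2 fold change 1.04, SE 0.18, adjusted p = 1.73e-05). That call fell just below the 2-fold limit without DMSO replicate 1 (0.97).

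SLC16A6 and SLC16A9 showed the deepest decreases of the class. SLC16A6 (MCT7, described as a carrier of ketone bodies) had T>C reads making up 46.9% of its reads under DMSO. Its T>C counts were 4, 2 and 0 with dCBP-30 against 34, 58 and 36 with DMSO at 6 h, and 0, 0 and 8 against 47, 49 and 44 at 24 h (log2 fold change -4.33, SE 0.81, adjusted p = 1.29e-05). SLC16A9 (MCT9, linked to carnitine transport) overlapped at 2 h (log2 fold change 0.25, SE 0.52, adjusted p = 0.858). At 24 h no treated library held a T>C read of it, against 57, 99 and 58 in DMSO, which makes new RNA at least 85.4-fold lower with a floor of 3 reads over the treated group (adjusted p = 3.07e-11). Its total RNA had fallen by 24 h to 0.11, 0.825 and 0.537 RPM from 17.8, 22.1 and 15.6 (log2 fold change -5.22, SE 0.35, adjusted p = 2.39e-12). Its 6 h call in new RNA (-1.86) was lost without dCBP-30 replicate 1 (-1.67) or DMSO replicate 3 (-1.46), and when scaled on T>C reads (-1.55).

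Among 11 carriers of vitamins, cofactors and nucleosides, 10 were tested, none was called at 2 h, and 3 were lower at 6 h and 3 at 24 h. The class median was 0.44, -0.33 and -0.68, and scaled on T>C reads it was 0.45, -0.0039 and -0.0073 at the 3 times, with 2 lower at 6 and at 24 h. SLC19A1 (the reduced folate carrier, which also takes up methotrexate) had 5.09, 5.81 and 2.38 T>C RPM with dCBP-30 and 3.94, 1.48 and 3.89 with DMSO at 2 h, with overlap (log2 fold change 0.51, SE 0.42, adjusted p = 0.544). At 6 h the values were 1.02, 1.05 and 1.35 T>C RPM with dCBP-30 and 4.66, 5.83 and 3.93 with DMSO (log2 fold change -2.07, SE 0.44, adjusted p = 0.000172). By 24 h its T>C counts were 1, 1 and 0 with dCBP-30 and 109, 81 and 102 with DMSO (log2 fold change -7.18, SE 0.67, adjusted p = 1.42e-13), and the change was lower than that at 2 h (adjusted p = 3.83e-11). Total RNA stood at 8.98, 6.55 and 4.88 RPM with dCBP-30 and 179, 144 and 152 with DMSO at 24 h (log2 fold change -4.54, SE 0.19, adjusted p = 2.17e-16). T>C reads made up 3.01% of its reads under DMSO. Its counted 3′ UTR lies on chromosome 21 at 45512565 to 45515657 (minus strand), overlapping COL18A1 on the other strand, and whether counting used strand is not given in the sources used here.

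SLC5A6, a sodium-dependent carrier of biotin and pantothenate, mentioned after its values were seen, was lower at 6 h (log2 fold change -1.58, SE 0.38, adjusted p = 0.00086) and 24 h (-1.68), with total RNA at 24 h of 29.0, 26.0 and 31.2 RPM with dCBP-30 and 93.8, 101 and 96.8 with DMSO (-1.76). SLC52A2, a riboflavin carrier with the most reads of the class, was lower at 6 h alone (log2 fold change -1.17, SE 0.37, adjusted p = 0.0132). That call was lost without dCBP-30 replicate 2 (-1.06) or 3 (-1.05) or DMSO replicate 1 (-1.02), and when scaled on T>C reads (-0.85). SLC33A1, the acetyl-CoA carrier of the endoplasmic reticulum, was not called at any time (0.80, -0.15 and -0.23), and another annotated gene overlaps its counted 3′ UTR on the same strand. SLC29A3, a lysosomal nucleoside carrier, was higher in total RNA at 6 h (log2 fold change 1.08, SE 0.32, adjusted p = 0.00934), a call lost without dCBP-30 replicate 3 (0.91) or DMSO replicate 3 (0.81). SLC43A3, a nucleobase carrier, had too few T>C reads to test.

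**Figure D3:**
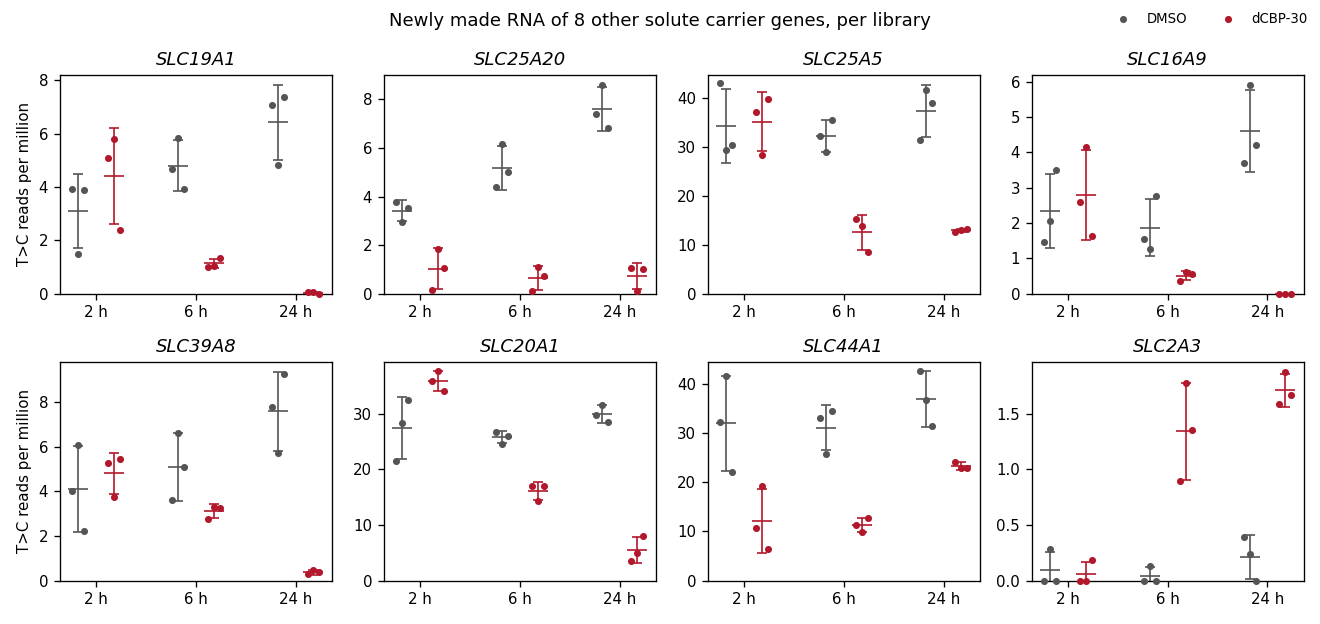
T>C RPM (vertical axis, linear from 0) of 8 other carrier genes in every labelled library; points are the 3 libraries of a group, with the group mean and SD, DMSO in grey and dCBP-30 in red. SLC19A1, SLC16A9 and SLC39A8 overlap their controls at 2 h and lie near 0 at 24 h with dCBP-30, SLC25A20 and SLC44A1 are below their controls at all 3 times, and SLC2A3 is above its controls at 6 and 24 h. SLC2A3 had enough T>C reads for a test only through its dCBP-30 libraries at those 2 times.

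Among 18 carriers of sugars and nucleotide sugars, 15 were tested in new RNA, with 1, 1 and 2 lower over the 3 times and 1 higher each time. The median was 0.52, 0.10 and -0.19, and the sign at 24 h turned when scaled on T>C reads (0.30). SLC2A3 (GLUT3, a high-affinity glucose carrier) was nearly unread in controls: its total levels at 6 h were 2.45, 5.54 and 3.68 RPM with dCBP-30 and 0.565, 2.01 and 0.881 with DMSO (log2 fold change 1.75, SE 0.50, adjusted p = 0.00666) and at 24 h 6.52, 5.12 and 10.5 RPM with dCBP-30 and 1.10, 1.25 and 1.52 with DMSO (log2 fold change 2.51, SE 0.49, adjusted p = 0.000113), above the controls at both times. At 2 h its total RNA was lower instead, at 0.0863, 0.132 and 0.313 RPM with dCBP-30 and 1.0, 1.13 and 1.64 with DMSO (log2 fold change -2.72, SE 0.65, adjusted p = 0.0134), and that call was lost without dCBP-30 replicate 1 (-2.45) or 2 (-2.52). Its T>C counts were 15, 32 and 22 with dCBP-30 against 0, 2 and 0 with DMSO at 6 h (log2 fold change 4.66, SE 1.37, adjusted p = 0.00775), and 29, 34 and 31 against 6, 4 and 0 at 24 h. It had enough T>C reads for a test only through these treated libraries, so a call could hardly have gone the other way. It also met the read threshold for inclusion only through dCBP-30 libraries, so its calls as higher in total RNA are tied to how carriers were included. The 24 h call in new RNA (2.96, adjusted p = 0.0354) was lost without any 1 of the 3 dCBP-30 libraries or without DMSO replicate 2 or 3 (2.42 to 3.05).

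SLC2A8 (GLUT8, an intracellular sugar carrier) was higher in new RNA at 2 h alone, with 6.21, 5.54 and 4.57 T>C RPM with dCBP-30 and 0.849, 1.41 and 1.72 with DMSO (log2 fold change 2.02, SE 0.47, adjusted p = 0.00104), and its change at 24 h was below that at 2 h (difference -2.52, adjusted p = 0.00183). SLC37A4, the glucose 6-phosphate carrier of the endoplasmic reticulum, went the other way. Its T>C levels at 24 h were 1.37, 0.77 and 0.751 T>C RPM with dCBP-30 and 7.32, 10.1 and 7.25 with DMSO (log2 fold change -3.09, SE 0.44, adjusted p = 3.54e-08), and its total RNA at 24 h was lower as well (-1.50). Its 2 h call (-1.28) was lost without dCBP-30 replicate 2 (-0.88) or 3 (-1.39), DMSO replicate 3 (-1.03) or the 24 h DMSO replicate 2 (-1.28). SLC35A2, which carries UDP-galactose into the Golgi, was not called in new RNA at any time (1.12, 0.89 and 0.93) but was higher in total RNA, with 70.4, 78.9 and 82.5 RPM with dCBP-30 and 31.1, 33.3 and 30 with DMSO at 24 h (log2 fold change 1.30, SE 0.14, adjusted p = 1.13e-08). Scaled on T>C reads, its new RNA was called higher at 6 h (1.22) and 24 h (1.59). SLC2A5 (GLUT5, a fructose carrier, mentioned after its values were seen) had too few T>C reads to test, and its total levels at 24 h were 0.219, 0.275 and 0.322 RPM with dCBP-30 and 5.05, 6.26 and 6.59 with DMSO (log2 fold change -4.41, SE 0.43, adjusted p = 3.8e-09).

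Of 9 lipid, choline and bile acid carriers 6 were tested, and 1 was lower at each time, with medians of 0.71, -0.80 and -1.09 (0.71, -0.48 and -0.45 scaled on T>C reads). SLC44A1, a choline carrier of the plasma membrane and mitochondria, was the 1 lower at 2 h (log2 fold change -1.40, SE 0.24, adjusted p = 9.44e-06), with 10.7, 19.3 and 6.38 T>C RPM with dCBP-30 and 32.3, 41.6 and 22.2 with DMSO, and at 6 h (log2 fold change -1.46, SE 0.24, adjusted p = 1.86e-06), with 11.4, 9.80 and 12.8 T>C RPM with dCBP-30 and 33.1, 25.9 and 34.5 with DMSO. At 24 h the groups did not overlap, at 24.3, 23.0 and 22.9 T>C RPM with dCBP-30 and 42.8, 36.7 and 31.4 with DMSO, but the change was below the 2-fold limit (log2 fold change -0.66, SE 0.23, adjusted p = 0.017). Its total RNA was -0.88 at 6 h (SE 0.09) and 0.04 at 24 h (SE 0.09). SLC27A2, an acyl-CoA synthetase of very long chain fatty acids mentioned after its values were seen, was the 1 lower at 24 h, with T>C counts of 1, 0 and 0 against 5, 20 and 11 (log2 fold change -4.89, SE 1.53, adjusted p = 0.00763) and a total level of 2.35, 1.87 and 0.483 RPM with dCBP-30 and 14.8, 15.1 and 14.5 with DMSO (-3.23). SLC27A4, another fatty acid carrier of the family, was not called (1.05, -2.04 and -0.89).

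Of 23 metal carriers 22 were tested: none was called at 2 h, 2 were lower and 1 higher at 6 h, and 6 were lower at 24 h, with medians of 0.25, -0.03 and -0.75. Scaled on T>C reads the medians were 0.25, 0.28 and -0.11, the sign at 6 h turned, and the calls at 24 h became 2 lower and 2 higher. SLC39A8 (ZIP8, an importer of zinc, manganese and iron, mentioned after its values were seen) was lower at 24 h, with 0.274, 0.495 and 0.376 T>C RPM with dCBP-30 and 7.78, 5.72 and 9.28 with DMSO (log2 fold change -4.28, SE 0.45, adjusted p = 6.54e-12), and had overlapped at 2 h (0.23). Its total levels at 24 h were 22.7, 18.1 and 22.3 RPM with dCBP-30 and 101, 96.6 and 96.4 with DMSO (-2.22). SLC39A4 (ZIP4, the intestinal zinc importer) had the most reads of the class and was lower at 6 h (log2 fold change -2.19, SE 0.57, adjusted p = 0.00229) and 24 h (log2 fold change -1.80, SE 0.55, adjusted p = 0.00693). The 24 h call was lost without dCBP-30 replicate 2 (-1.40) and when scaled on T>C reads (-1.17), while its total RNA at 24 h read 41.8, 36.4 and 35.5 RPM with dCBP-30 and 137, 139 and 153 with DMSO (-1.92).

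SLC30A4 (ZnT4, a zinc exporter into vesicles) was the 1 metal carrier higher in new RNA, with T>C counts of 20, 8 and 50 against 5, 0 and 3 at 6 h (log2 fold change 3.03, SE 1.04, adjusted p = 0.0251). That call was lost without dCBP-30 replicate 3 (2.10) or DMSO replicate 2 (2.46) or 3 (3.11), but total RNA was higher at 6 h, with 8.98, 11.5 and 13.2 RPM with dCBP-30 and 4.10, 1.41 and 1.97 with DMSO (log2 fold change 2.17, SE 0.37, adjusted p = 3.68e-05), and at 24 h (1.81). In new RNA SLC30A4 had enough T>C reads for a test only through treated libraries, where it is high. SLC30A3 (ZnT3, mentioned after its values were seen) was higher in total RNA at 2 h, with 2.59, 2.11 and 4.13 RPM with dCBP-30 and 0.463, 0.776 and 0.822 with DMSO (log2 fold change 2.09, SE 0.43, adjusted p = 0.00322), and at 6 h, with 16.2, 13.1 and 18.6 RPM with dCBP-30 and 2.19, 1.74 and 1.76 with DMSO (log2 fold change 3.07, SE 0.38, adjusted p = 3.5e-07). At 24 h its groups overlapped (0.36), and it had too few T>C reads for a test. SLC31A1 (CTR1, the copper importer) had new RNA values of 1.37, 1.89 and -0.97 that were not called, and lower total RNA at 24 h, with 11.3, 8.53 and 8.59 RPM with dCBP-30 and 23.7, 19.8 and 18.8 with DMSO (log2 fold change -1.13, SE 0.20, adjusted p = 2.46e-05). SLC39A6 (ZIP6) and SLC30A5 (ZnT5) were not called in either measure.

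Of 23 carriers of inorganic ions and bicarbonate 15 were tested. In new RNA 1 was lower and 2 were higher at 2 h, 1 was higher at 6 h and 4 were lower at 24 h, with medians of 0.94, -0.06 and -0.22. The later signs turned when scaled on T>C reads (0.24 and 0.44). SLC26A2, a sulfate carrier, was higher at 2 h, with 5.01, 5.08 and 4.63 T>C RPM with dCBP-30 and 1.16, 1.90 and 1.27 with DMSO (log2 fold change 1.75, SE 0.40, adjusted p = 0.000821), and its total RNA was called at 6 h (log2 fold change 1.05, SE 0.15, adjusted p = 2.28e-06), but not without dCBP-30 replicate 2 (0.99) or DMSO replicate 1 (0.97).

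SLC20A1 (PiT1, a sodium-phosphate cotransporter) had the most reads of the class. Its new RNA was 17.0, 14.2 and 16.9 T>C RPM with dCBP-30 and 26.8, 24.6 and 26.0 with DMSO at 6 h, apart but below the 2-fold limit (log2 fold change -0.68, SE 0.20, adjusted p = 0.00714), and 3.50, 5.01 and 8.05 T>C RPM with dCBP-30 and 29.8, 31.5 and 28.4 with DMSO at 24 h (log2 fold change -2.44, SE 0.21, adjusted p = 1.32e-14). Its total RNA changed by -1.95 at 24 h (SE 0.11), where the earlier values were 0.45 and 0.05. SLC12A2 (NKCC1, a sodium-potassium-chloride cotransporter) was not called in new RNA (0.54, 0.01 and -0.22).

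Of 5 carriers of organic ions or vesicular cargo 4 were tested, and SLC17A5 (sialin, which exports sialic acid from lysosomes) was the 1 called, lower at 6 h (log2 fold change -1.30, SE 0.43, adjusted p = 0.0201). That call was lost without dCBP-30 replicate 2 (-1.08) or DMSO replicate 1 (-1.23) or 2 (-1.25), and when scaled on T>C reads (-1.0). At 24 h its total RNA was higher instead, with 45.5, 39.0 and 40.8 RPM with dCBP-30 and 15.9, 21.4 and 16.4 with DMSO (log2 fold change 1.22, SE 0.21, adjusted p = 2.87e-05). In total RNA at that time 4 of the 5 carriers of the class were higher, where 15.0% of all genes were called higher. SLC22A15, 1 of these 4 and named after its values were seen, met the read threshold for inclusion only through dCBP-30 libraries. The new RNA of SLC17A5 at 24 h was 0.76 and not called, and 1.40 and called higher when scaled on T>C reads. SLC22A5 (OCTN2, a carnitine importer) was not called in either measure, nor was SLC66A2, which had the most reads of the 4 other carriers.

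Total RNA, tested for all 164 carriers, changed later and in both directions. At 2 h 3 carriers were lower and 2 higher, where 1.25% and 0.457% of all 12267 genes tested were called. At 6 h 19 were lower and 19 higher (8.68% and 7.47% of all genes), and at 24 h 32 were lower and 22 higher (16.1% and 15.0% of all genes). Some carriers called higher met the read threshold for inclusion only through dCBP-30 libraries. SLC25A29 (called at 6 h) and SLC27A1 (at 6 and 24 h), both named after their values were seen, are examples. At 6 h SLC25A29 had 47, 42 and 43 reads with dCBP-30 and 0, 0 and 4 with DMSO. The counts of higher carriers thus partly reflect how carriers were included. The 2 higher at 2 h were SLC30A3 and SLC45A4 (a carrier of the SLC45 family named after its values were seen, log2 fold change 1.18, SE 0.24, adjusted p = 0.00259, which was 0.97 and not called without dCBP-30 replicate 2). Of the 45 carriers lower in new RNA at 24 h, 27 were lower in total RNA too, and 5 were lower in total RNA without such a call (SLC15A2, SLC2A5, SLC31A1, SLC4A4 and SLC6A9). Of the 22 higher in total RNA at 24 h, 1 (SLC2A3) was called higher in new RNA. The shares of all genes with these overlaps are not given here, so the overlaps are not read as particular to carriers. In size, carriers lower in total RNA at 24 h reached -5.22 (SLC16A9) and -4.54 (SLC19A1). Without TMM, the split of calls at 24 h became 21 lower and 41 higher, and the median of all genes then stood at 0.58 in place of 0.05.

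**Figure D4:**
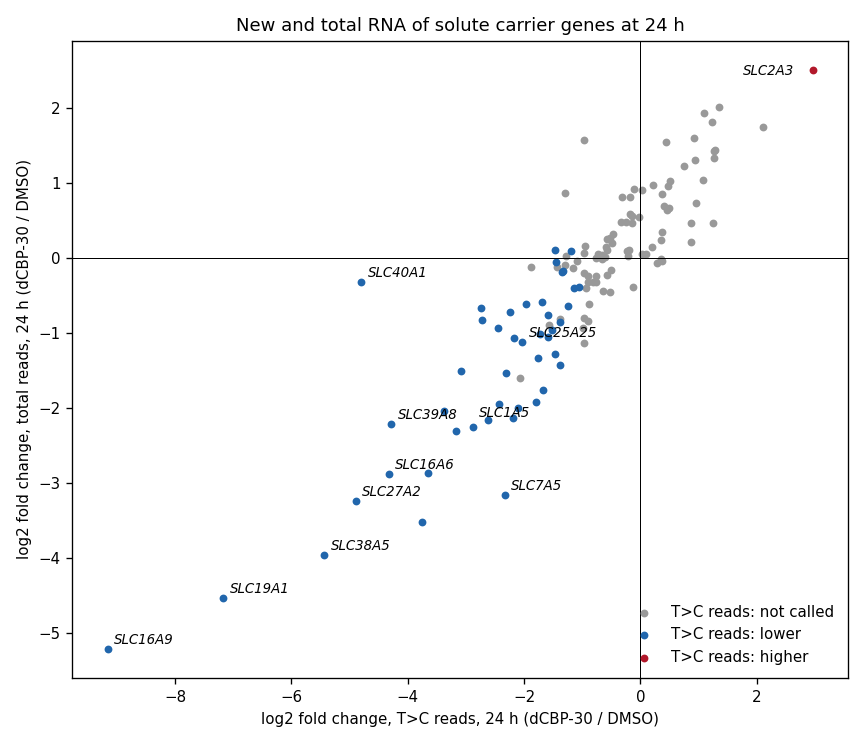
Log2 fold change (dCBP-30 over DMSO) at 24 h of T>C reads (horizontal axis) and of total reads (vertical axis) for the 133 carriers tested in both, coloured by the call in T>C reads. Many of the carriers lowest in new RNA are also low in total RNA, and of the 45 called lower in new RNA 27 were called lower in total RNA too. SLC40A1 (labelled after its values were seen) is 1 of those without a call in total RNA. SLC2A3 stands highest in both, and had enough T>C reads for a test only through treated libraries. It also met the read threshold for inclusion only through dCBP-30 libraries. The horizontal place of SLC16A9 (no T>C read with dCBP-30) depends on the fit's prior count. The share of all genes called lower in both measures is not given here.

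By class, amino acid carriers gave 11 lower and 3 higher of 27 in total RNA at 24 h, and mitochondrial carriers 8 lower and none higher of 37. Sugar and nucleotide sugar carriers gave 2 lower and 4 higher of 18, and carriers of inorganic ions and bicarbonate 2 lower and 4 higher of 23. Without TMM, amino acid carriers gave 6 lower and 7 higher, and mitochondrial carriers 4 lower and 3 higher. Sugar and nucleotide sugar carriers then gave 1 lower and 7 higher, and carriers of inorganic ions and bicarbonate 2 lower and 9 higher. The class counts thus depend on the scaling, and no test compared the classes. Among the 3 amino acid carriers called higher at 24 h with TMM was SLC6A8 (the creatine carrier, counted here by its family and named after its values were seen), for which 49.6% as many reads as it counted mapped to more than 1 place, so that its rise in total RNA (2.21) is uncertain. The same share was 82.3% for SLC43A2, 34.6% for SLC25A23 and 20.6% for SLC14A2, none of which was called in either measure. SLC6A8 also met the read threshold for inclusion only through dCBP-30 libraries.

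**Figure D5:**
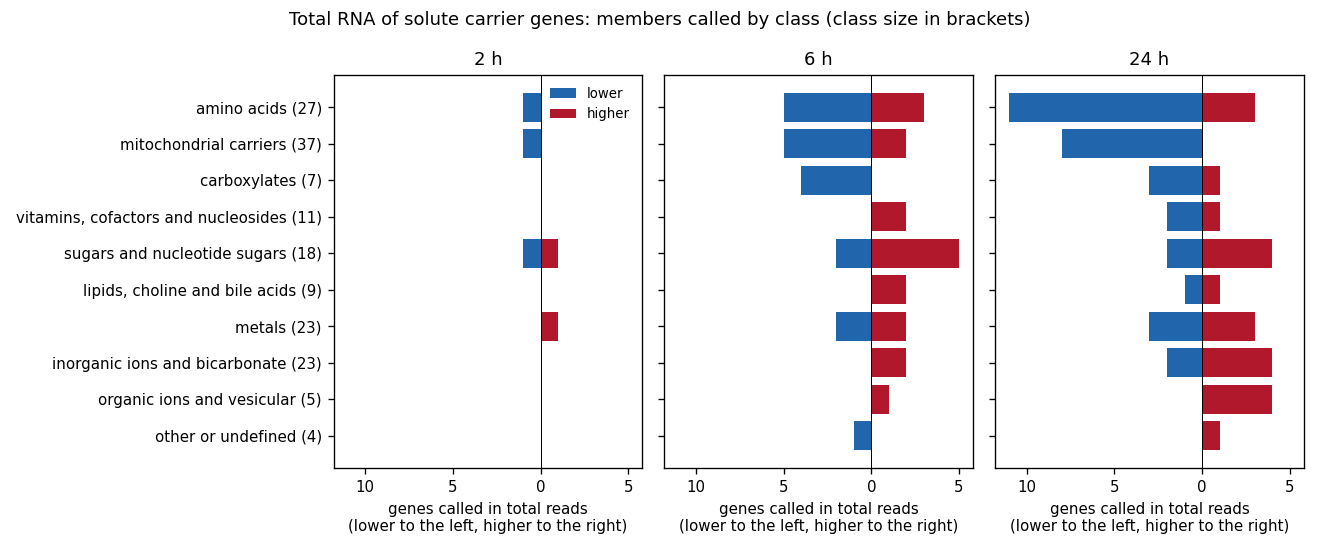
Number of carriers called lower (blue, to the left) and higher (red, to the right) in total reads at 2, 6 and 24 h, in 1 row per substrate class with the class size in brackets. At 24 h the amino acid row holds 11 lower and 3 higher and the mitochondrial row 8 lower and none higher, while the rows of sugars, inorganic ions and organic ions hold more higher than lower. Without TMM these 24 h counts become 6 lower and 7 higher for amino acids and 4 lower and 3 higher for mitochondrial carriers.

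New RNA as a share of all RNA under DMSO differed widely between carriers. Over the 9 DMSO libraries T>C reads made up a median of 8.75% of a carrier's reads (range 0 to 69.7%), beside 10.5% over the 11411 genes with 200 or more reads. SLC25A25 (69.7%), SLC16A6 (46.9%), SLC19A2 (44.7%, a thiamine carrier) and SLC9A3 (38.8%, a sodium/proton exchanger) stood at the top. In the 2 libraries without 4sU, where no conversion comes from labelling, the share was 0.761% for SLC3A2 against 27.9% with label, and 0.888% against 27% for SLC20A1. Background was a larger part of the signal for SLC7A5 (2.36% against 5.80%), SLC1A5 (2.06% against 6.58%), SLC38A5 (0.457% against 1.97%) and SLC19A1 (0.551% against 3.01%). For SLC38A5 total RNA at 6 h (-0.47) was not called although its new RNA was (-3.16).

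The stretches before the start sites were searched for 4 motifs. RefSeq-based windows (GRCh38.p14) of the 250 bases before the start were at hand for 135 of the 164 carriers. The E-box CACGTG, which reads the same on both strands and is the motif bound by MYC with MAX, was in 6.49% of all 27305 windows, in 9.39% of those of the genes tested for new RNA, and in 11.9% of the carriers' windows (16 of 135). It was in 5 of 36 carriers lower at 24 h (13.9%), in 3 of 18 lower at 6 h (16.7%), in 0 of 9 lower at 2 h and in 7 of 66 never called (10.6%). The shares among all genes lower were 10.1% at 24 h, 11.8% at 6 h and 10.5% at 2 h. The 5 are shown as 60 bases each, with the E-box in capitals, because they are the carriers lower at 24 h that hold it.
SLC7A5, chr16:87869605-87869664, - strand: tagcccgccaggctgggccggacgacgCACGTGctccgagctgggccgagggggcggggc
SLC38A5, chrX:48470434-48470493, - strand: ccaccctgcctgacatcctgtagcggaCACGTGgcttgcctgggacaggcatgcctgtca
SLC16A9, chr10:59710094-59710153, - strand: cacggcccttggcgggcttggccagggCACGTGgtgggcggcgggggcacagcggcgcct
SLC20A1, chr2:112645706-112645765, + strand: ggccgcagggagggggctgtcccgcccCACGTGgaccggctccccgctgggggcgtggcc
SLC25A33, chr1:9539405-9539464, + strand: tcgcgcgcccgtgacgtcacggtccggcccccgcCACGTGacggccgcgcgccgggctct
The first base of the E-box lies 130 bases before the start in SLC7A5, 206 in SLC38A5 and in SLC20A1, 47 in SLC16A9 and 26 in SLC25A33 (a pyrimidine nucleotide carrier of mitochondria). TGATGNAA (the core of an amino acid response element), TGCTGAC (part of a MAF element) and the MEF2 motif, searched on both strands, were in 4, 3 and 3 of the 135 windows (2.96%, 2.22% and 2.22%, beside 3.19%, 3.42% and 2.42% of all windows). A match describes letters in this window and is not a site of binding.

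A second list of 44 transporter genes outside the symbol pattern (SFXN, SLCO, SLC35 with other letters, MFSD and similar families) gave 2 lower of 39 tested in new RNA at 2 h, 7 at 6 h and 14 at 24 h, with none higher, where 7.14%, 17.1% and 31.2% of all genes were called lower. The medians were 0.07, -0.47 and -0.83. In total RNA, of 42 tested, none was called at 2 h, 5 were lower and 3 higher at 6 h, and 10 were lower and 2 higher at 24 h. Of all genes tested in total RNA, 8.68% were lower and 7.47% higher at 6 h, and 16.1% and 15.0% at 24 h. The transporters of this list lower at 24 h included MPC1, a subunit of the mitochondrial pyruvate carrier, and SFXN1, a mitochondrial serine carrier.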

How the data were processed

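The deposited tables give, per annotated 3′ UTR, read counts and counts of reads with T>C conversions, made by the authors with Trim Galore and Slamdunk on hg38. Each gene was its transcript with the most reads. T>C and total counts were tested over all genes with edgeR's quasi-likelihood test (edgeR 4.0.16) on the 18 labelled libraries, scaled by total reads with TMM factors, without a replicate block. P-values were Benjamini-Hochberg adjusted over all genes. Per-library values (RPM) are counts over scaled library totals. The methods' DESeq2 (1.42.0) was an alternative, beside other scalings, filters, background subtraction, summed transcripts, single time points and leaving out each library. The fit was checked on simulated counts. Named genes were a list of 30 well-known carriers, the carrier with most reads in each class, and the 4 largest decreases and increases in T>C reads per time point among called carriers whose groups did not overlap and whose higher group had at least 20 T>C reads on average. Any other gene was named after its values were seen. Members, classes and lists were chosen with earlier results of these data known. Promoter windows came from RefSeq. Some genes that the rule names are not reported here.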

Additional observations from a re-analysis of the deposited data

Results flagged for a closer look

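The change in new RNA differed between 24 and 2 h, by the test of that difference, for 24 of the carriers described. Among all genes tested the median of this difference was -0.72, and 21.5% were called lower and 2.61% higher, so that the smaller values below lie close to the general shift. The values that follow are the log2 fold change at 24 h minus that at 2 h. Among amino acid carriers the difference was -4.33 for SLC38A5, -3.65 for SLC1A5, -2.48 for SLC7A1, -2.20 for SLC7A5, -1.83 for SLC6A6, -1.72 for SLC38A7 and -1.57 for SLC3A2. Among carboxylate and vitamin carriers it was -9.41 for SLC16A9 and -7.69 for SLC19A1, whose sizes depend on the prior count of the fit, -4.45 for SLC16A6, -2.65 for SLC16A1, -2.05 for SLC5A6 and -1.03 for SLC33A1. Mitochondrial carriers gave -1.89 for SLC25A25, -1.56 for SLC25A5 and -1.01 for SLC25A3. In the remaining classes it was -5.45 for SLC27A2, -4.51 for SLC39A8, -2.82 for SLC20A1, -2.79 for SLC45A4 (named after its values were seen), -2.52 for SLC2A8, -2.06 for SLC39A4, -1.81 for SLC37A4 and -1.54 for SLC26A2. The size for SLC27A2, with 1, 0 and 0 T>C reads with dCBP-30 at 24 h, also depends on the prior count.

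When T>C reads set the scale, 12 of the 24 were no longer called: SLC16A1, SLC25A3, SLC25A5, SLC26A2, SLC27A2, SLC33A1, SLC37A4, SLC38A7, SLC39A4, SLC3A2, SLC5A6 and SLC6A6. Without TMM 9 were not called, with DESeq2 size factors from the T>C reads 11, and with DESeq2 size factors from total reads 0.

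Of the 24, 9 were lost in at least 1 fit without a library. SLC16A1 was lost without the 24 h DMSO replicate 2 (-2.32). SLC37A4 was lost without the 2 h dCBP-30 replicate 1 (-1.43) or the 24 h DMSO replicate 2 (-1.64). SLC6A6 was lost without replicate 1 of either 2 h group (-1.66 and -1.59), the 24 h dCBP-30 replicate 2 (-1.55) or the 24 h DMSO replicate 3 (-1.48). For SLC25A3, SLC26A2, SLC33A1 and SLC27A2 the call was lost in 5 fits each, for SLC38A7 in 6 and for SLC39A4 in 8.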

How the results depend on the processing

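Direction was kept in all alternatives run for the values called. Replicate numbers did not pair the libraries (correlations of same-numbered deviations -0.051 to 0.016), and with the replicate block the carriers lower in new RNA numbered 8, 26 and 44 at 2, 6 and 24 h. Scaling moved several counts. Carriers lower in T>C reads at 24 h (45) became 26 scaled on T>C reads and 25 with DESeq2's own size factors, and those whose change was lower at 24 than at 2 h (37) became 17, 18 and, without TMM, 24. Carriers higher at 6 h (3) became 10 scaled on T>C reads, 10 without TMM, 5 and 13 with DESeq2's total and own size factors, 1 with a mean of 20 reads required, with summed transcripts or with background subtracted, and 6 at an adjusted p under 0.1, which gave 7 higher at 2 h. The 1 higher at 24 h became 6, 5 and 11 under those scalings (T>C reads, without TMM, DESeq2's own), 2 with each time point fitted alone, and 0 with the filter, summed transcripts or background subtraction. In total reads at 24 h, 32 lower and 22 higher became 21 and 41 without TMM, and the 2 higher at 2 h became 1 with time points alone. Leaving out 1 library gave 6 to 11 lower and 2 to 6 higher in T>C reads at 2 h (fewest without dCBP-30 replicate 3 and DMSO replicate 3), 1 to 4 higher at 6 h (fewest without dCBP-30 replicate 3) and 0 to 1 higher at 24 h, and in total reads at 2 h 1 to 3 lower and 1 to 3 higher (fewest without dCBP-30 replicates 1 and 2). The cause was not tested. Low T>C counts limit precision, and 31 carriers could not be tested in new RNA.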
